A study of Mus musculus with 87 samples.

Results

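The 10 genes described here encode acute-phase plasma proteins other than serum amyloid A, and were followed in the mouse liver from rest through partial hepatectomy (PH). They are Fga, Fgb and Fgg, which encode the 3 chains of fibrinogen, Hp (haptoglobin), Hpx (hemopexin), Orm1 and Orm2 (the orosomucoids), Serpina3n (a serine protease inhibitor), Lcn2 (lipocalin 2) and Lbp (lipopolysaccharide-binding protein). They were chosen by symbol, as the 10 protein-coding rows of that name among the 37991 genes of the deposited table, and all 10 were above −1.5 log2 RPKM in all 80 libraries. RPKM scales reads by transcript length and by library size, so that levels of different genes may be compared per length.

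The 80 libraries are poly(A)-selected RNA-Seq of individual livers of C57BL/6 males labelled as aged 12 to 14 weeks, kept in 12 h of light and 12 h of dark with food only in the dark. By the study's methods this was the age at surgery, so livers taken 1 or 4 weeks after it came from mice older by that time. In PH the larger part of the liver was resected under isoflurane, and surgery took place at ZT2, 2 h after the onset of light (ZT, Zeitgeber Time). Post-PH livers are named X and numbered by hours or weeks, with X1 (n = 6), X4 (n = 3), X10 (n = 6), X20 (n = 6), X28 (n = 3), X36 (n = 6), X44 (n = 3), X48 (n = 5), X72 (n = 3), X1W (n = 3) and X4W (n = 2). Sham livers had the abdomen opened and no resection, and are named S, with S1 (n = 6), S4 (n = 5), S10 (n = 3), S20 (n = 3) and S48 (n = 3). Unoperated livers were taken at time 0 (C0, n = 9, ZT2), 4 h later (C4, n = 3, ZT6) and 4 weeks later (C4W, n = 2). The abdomen was thus opened in all X and S mice, and each library is liver tissue of 1 mouse with all its cell types.

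The acute-phase response is the change in the plasma proteins made by the liver after injury or infection. Interleukin-6 signals to the hepatocyte through its receptor and gp130 to STAT3, interleukin-1 acts through NF-kB, and C/EBP factors and glucocorticoids act beside them on the promoters of the induced genes. Fibrinogen is the precursor of the clot. Haptoglobin and hemopexin bind free hemoglobin and free heme, the orosomucoids carry lipophilic molecules, and lipocalin 2 withholds iron by binding bacterial siderophores. LBP presents endotoxin to CD14. Outside the hepatocyte, Lcn2 is also a product of neutrophils, and in whole-liver RNA fewer cells of a type and less RNA per cell cannot be told apart.

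On the mm9 assembly (NCBI build 37), the fibrinogen genes lie side by side on chromosome 3 (Fgg at chr3:82811781-82818975, Fga at chr3:82830075-82838036, Fgb at chr3:82846169-82853725) and the orosomucoids on chromosome 4 (Orm1 at chr4:63005594-63009197, Orm2 at chr4:63023483-63026912). Hp lies at chr8:112099030-112103072, Hpx at chr7:112740127-112748630, Lcn2 at chr2:32240153-32243317, Lbp at chr2:158132229-158158588 and Serpina3n at chr12:105644939-105652539. Orm1 and Orm2 shared 47 of their 676 windows of 100 bases (6.95%), where a read of that length could not be placed in either one alone. Serpina3n shared 1 window with Serpina3g, and the other 7 genes shared none.

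RefSeq promoter sequences (GRCm38.p6, another build than the gene positions above) were at hand for 7 of the 10 genes, and Orm1, Hp and Lbp had no entry. The 250 bases before the start of transcription are given for the 6 genes on whose differences in timing, or between PH and sham, the results below turn. Letters in capitals match, on either strand, one of the motifs TTCNNNGAA (STAT), CTGGGAA (the core of the interleukin-6 response element), TTNNGCAA (C/EBP) or the kB site of NF-kB, none of which overlap in these windows.
Fga, chr3:83025903-83026152 on the plus strand: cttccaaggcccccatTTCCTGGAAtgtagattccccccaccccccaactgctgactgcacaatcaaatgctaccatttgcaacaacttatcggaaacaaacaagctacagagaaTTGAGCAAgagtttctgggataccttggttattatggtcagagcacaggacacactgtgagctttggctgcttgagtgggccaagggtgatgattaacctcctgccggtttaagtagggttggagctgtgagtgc
Fgb, chr3:83049864-83050113 on the minus strand: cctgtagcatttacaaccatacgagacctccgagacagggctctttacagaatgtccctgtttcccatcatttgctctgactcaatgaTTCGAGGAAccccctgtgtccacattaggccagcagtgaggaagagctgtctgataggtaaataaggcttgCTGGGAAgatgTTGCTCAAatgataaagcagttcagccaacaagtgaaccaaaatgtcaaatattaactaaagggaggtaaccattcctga
Fgg, chr3:83007474-83007723 on the plus strand: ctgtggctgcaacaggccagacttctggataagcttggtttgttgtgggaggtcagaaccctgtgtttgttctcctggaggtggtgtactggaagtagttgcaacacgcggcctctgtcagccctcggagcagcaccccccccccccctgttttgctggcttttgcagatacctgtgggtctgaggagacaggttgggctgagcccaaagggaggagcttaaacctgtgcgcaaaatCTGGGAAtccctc
Orm2, chr4:63362199-63362448 on the plus strand: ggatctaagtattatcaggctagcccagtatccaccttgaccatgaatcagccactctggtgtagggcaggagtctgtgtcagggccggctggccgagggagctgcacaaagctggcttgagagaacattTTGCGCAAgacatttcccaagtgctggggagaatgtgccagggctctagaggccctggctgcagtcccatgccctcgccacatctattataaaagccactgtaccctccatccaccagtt
Serpina3n, chr12:104406458-104406707 on the plus strand: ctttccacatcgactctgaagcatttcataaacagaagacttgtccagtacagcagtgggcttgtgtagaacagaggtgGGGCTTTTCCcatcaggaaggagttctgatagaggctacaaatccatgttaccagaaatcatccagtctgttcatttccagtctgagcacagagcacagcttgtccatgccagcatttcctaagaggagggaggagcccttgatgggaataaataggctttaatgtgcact
Lcn2, chr2:32387740-32387989 on the minus strand: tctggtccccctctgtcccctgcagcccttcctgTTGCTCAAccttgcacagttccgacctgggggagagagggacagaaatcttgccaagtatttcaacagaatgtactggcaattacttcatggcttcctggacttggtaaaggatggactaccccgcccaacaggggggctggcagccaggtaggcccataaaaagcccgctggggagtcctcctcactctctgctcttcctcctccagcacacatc
The Fga window held a STAT match from −234 to −226 and a C/EBP match from −135 to −128, counted from the start of transcription. The Fgb window held a STAT match (−162 to −154), an interleukin-6 element core (−91 to −85) and a C/EBP match (−80 to −73), and Fgg held the interleukin-6 element core alone, from −13 to −7. Orm2 and Lcn2 each held a C/EBP match, from −120 to −113 and from −216 to −209, as did Hpx (−200 to −193), and Serpina3n held only the NF-kB letters, from −171 to −162. Over the 7 windows, C/EBP letters occurred in 5, STAT letters in 2, interleukin-6 element cores in 2 and NF-kB letters in 1. Of 32851 RefSeq promoter windows of that length, 9.56% held C/EBP letters, 7.02% STAT, 9.1% interleukin-6 element core and 1.41% NF-kB letters. A match is a run of letters and not a measured binding site.

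Estimated depth, in M reads, was 12.2 to 49.0 per library (median 26.8). By the study's supplement the mice were handled in 3 separate periods. RNA of X28, X44, X48, X72, X1W and S48 came from the first alone, that of S10, S20, X4W and C4W from the second alone and that of C4 from the third alone, whereas C0, X1, X10, X20, X36, S1 and S4 came from more than 1 period. X4 was taken in the first and the second, and the period of the 3 X4 livers used here is not labelled. The labels do not assign single livers to a period, so that period and group cannot be told apart where a comparison crosses periods, as C4 against C0, X4W against C0, X20 against S20 and X44 against X20 do at least in part and X28 against X4 may. The comparisons of X4, S4 and X28 with C4 cross periods wholly. X48 and S48, and X4W and C4W, share a period. One library of each of 3 groups stood apart. In X28 replicate 2, 41.4% of genes were listed at 0 reads, against 52.9% of all values of the 80 libraries. In C0 replicate 8 and S1 replicate 1, several of the genes described here were far above their group. In C0 the 8 hepatocyte markers summed to 33020 to 42770 RPKM, and the 12 neutrophil markers summed to 0.411 to 5.50 RPKM in the libraries other than replicate 8.

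In the resting liver the 10 genes covered a wide range. At C0, Fgb was the most abundant, with 11.21 ± 0.30 log2 RPKM (mean ± SD, n = 9), followed by Hpx with 10.96 ± 0.57, Fgg with 10.91 ± 0.30, Hp with 10.62 ± 0.70, Fga with 10.50 ± 0.25 and Orm1 with 9.72 ± 0.44. Serpina3n (6.86 ± 0.34), Orm2 (5.30 ± 1.01), Lbp (3.95 ± 0.51) and Lcn2 (1.16 ± 1.80) were far lower. Lcn2, the lowest, had an estimated 140 reads in the median C0 library (29.0 to 2464). Together the 10 genes held 1.77% ± 0.56 of the summed RPKM of all genes at C0.

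The spread at C0 came largely from 1 liver. Lcn2 stood at 5.64 log2 RPKM in C0 replicate 8 and between −0.77 and 1.19 in the other 8 livers. In that liver Orm2 stood at 7.86 (others 4.51 to 5.38), Hp at 12.41 (others 10.19 to 10.77), Hpx at 12.41 (others 10.40 to 10.97), Orm1 at 10.77 (others 9.30 to 9.87) and Lbp at 5.09 (others 3.38 to 4.23). By contrast Fga, Fgb, Fgg and Serpina3n lay at 10.82, 11.65, 11.32 and 6.96, of which only Fga was above the others (10.01 to 10.74). Neutrophil markers summed to 55.1 RPKM in this library, with S100a8 at 4.15 log2 RPKM (others −3.71 to 0.63), and macrophage markers to 153 RPKM (others 9.71 to 30.7). Their part in the levels of the 10 genes was not tested. Without C0 replicate 8, Lcn2 at X4 was 8.45 above C0 on the log2 scale in place of 7.92, and no call at 4 to 72 h was lost.

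**Figure D1:**
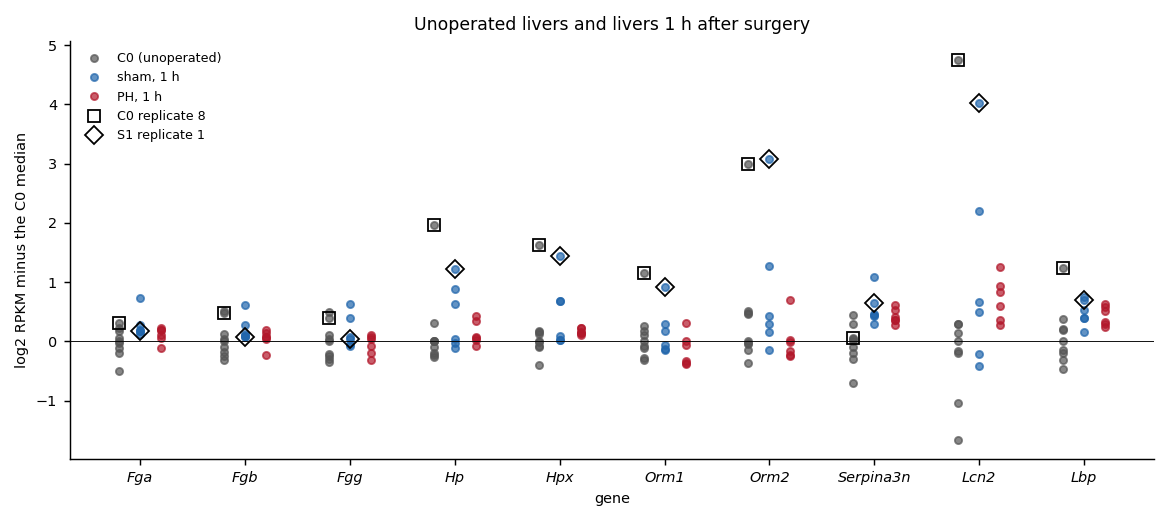
Levels of the 10 genes in the 9 C0 livers (gray), 6 sham livers at 1 h (blue) and 6 post-PH livers at 1 h (red), each point 1 liver, as log2 RPKM minus the C0 median of that gene (vertical axis). The square marks C0 replicate 8 and the diamond S1 replicate 1, which lie apart from their groups for Lcn2 and Orm2 (5.64 and 7.86 log2 RPKM in C0 replicate 8, 4.92 and 7.96 in S1 replicate 1) and within or near them for the fibrinogen genes and Serpina3n.

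At 1 h none of the 10 genes was called after PH, and 1, Serpina3n, after sham surgery. Calls required an adjusted p under 0.05 (limma on log2(RPKM + 0.25), Benjamini-Hochberg over 15396 genes) together with a log2 difference of more than 0.5 in size, so all differences below are on the log2(RPKM + 0.25) scale. The share of all genes called higher was 4.85% at X1 and 2.44% at S1, and that called lower 8.65% and 5.34%. Serpina3n lay between 6.20 and 7.35 log2 RPKM in the C0 livers (median 6.91), between 7.21 and 7.99 at S1 (median 7.36) and between 7.18 and 7.53 at X1 (median 7.29). Its difference from C0 was 0.61 ± 0.18 (SE, adjusted p = 0.00800, limma) at S1 and 0.47 ± 0.18 (adjusted p = 0.0299) at X1, the latter below the required size, and the groups overlapped. Without S1 replicate 3 the difference at S1 was 0.51 (adjusted p = 0.0515). Without C0 replicate 8, 4 genes were called at S1, with Lcn2 (1.30), Lbp (0.52) and Hpx (0.51) beside Serpina3n, and Serpina3n was called at X1 when C0 replicate 5, C0 replicate 6 or X1 replicate 1 was left out (0.50 to 0.54). For Lcn2, X1 ranged from 1.17 to 2.15 (median 1.61) and S1 from 0.48 to 4.92 (median 1.46), the highest being S1 replicate 1. Leaving out C0 replicate 8, X28 replicate 2 and S1 replicate 1, a choice made after their values were seen, Lcn2 was called at X1, with 0.88 above C0 (adjusted p = 0.0227, limma).

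At 4 h all 10 genes were called higher than C0, after PH and after sham surgery alike. Of all genes tested, 11.2% were called higher at X4 and 11.7% at S4, and 26.9% and 22.7% lower. The median difference of the 10 genes from C0 was 1.86 at X4 and 2.06 at S4 (over all genes −0.20 and −0.14). In C4 livers of the same hour none of the 10 genes was called against C0, against 5.81% of all genes called higher and 2.08% called lower, and against C4 all 10 genes were again higher in X4 and in S4 (11.7% and 12.2% of all genes, with 33.9% and 31.0% lower). The rise was thus present when the hour of the day was matched, although C4 came from another period than X4 and S4.

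Lcn2 rose most. Its level was 9.24, 8.98 and 9.64 log2 RPKM in the 3 X4 livers, and 10.24, 9.57, 9.88, 8.55 and 8.37 in the S4 livers, whereas the C4 livers stood at −0.06, −0.47 and −0.18. Every operated liver of this time was thus above every C4 and C0 liver, C0 replicate 8 included. The difference from C0 was 7.92 ± 0.59 at X4, a 242-fold change (adjusted p = 2.83e-18, limma), and 7.95 ± 0.49 at S4. Serpina3n had the second largest change, with 12.02, 11.67 and 12.01 at X4, between 11.17 and 12.27 at S4, and 6.55, 5.92 and 6.91 at C4. It was 5.04 ± 0.23 above C0 at X4, or 33.0-fold (adjusted p = 2.18e-28).

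The 3 fibrinogen chains rose 3.37- to 4.06-fold at X4 (Fga 2.02 ± 0.18, Fgb 1.76 ± 0.19, Fgg 1.75 ± 0.18 on the log2 scale). Haptoglobin and hemopexin rose 3.59- and 2.94-fold, Orm1 3.32-fold, Orm2 4.26-fold and Lbp 3.68-fold. Adjusted p was 8.28e-05 for Orm2 and below that for the others. Orm2, Hp and Hpx overlapped C0 at X4, where only C0 replicate 8 reached the X4 range.

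**Figure D2:**
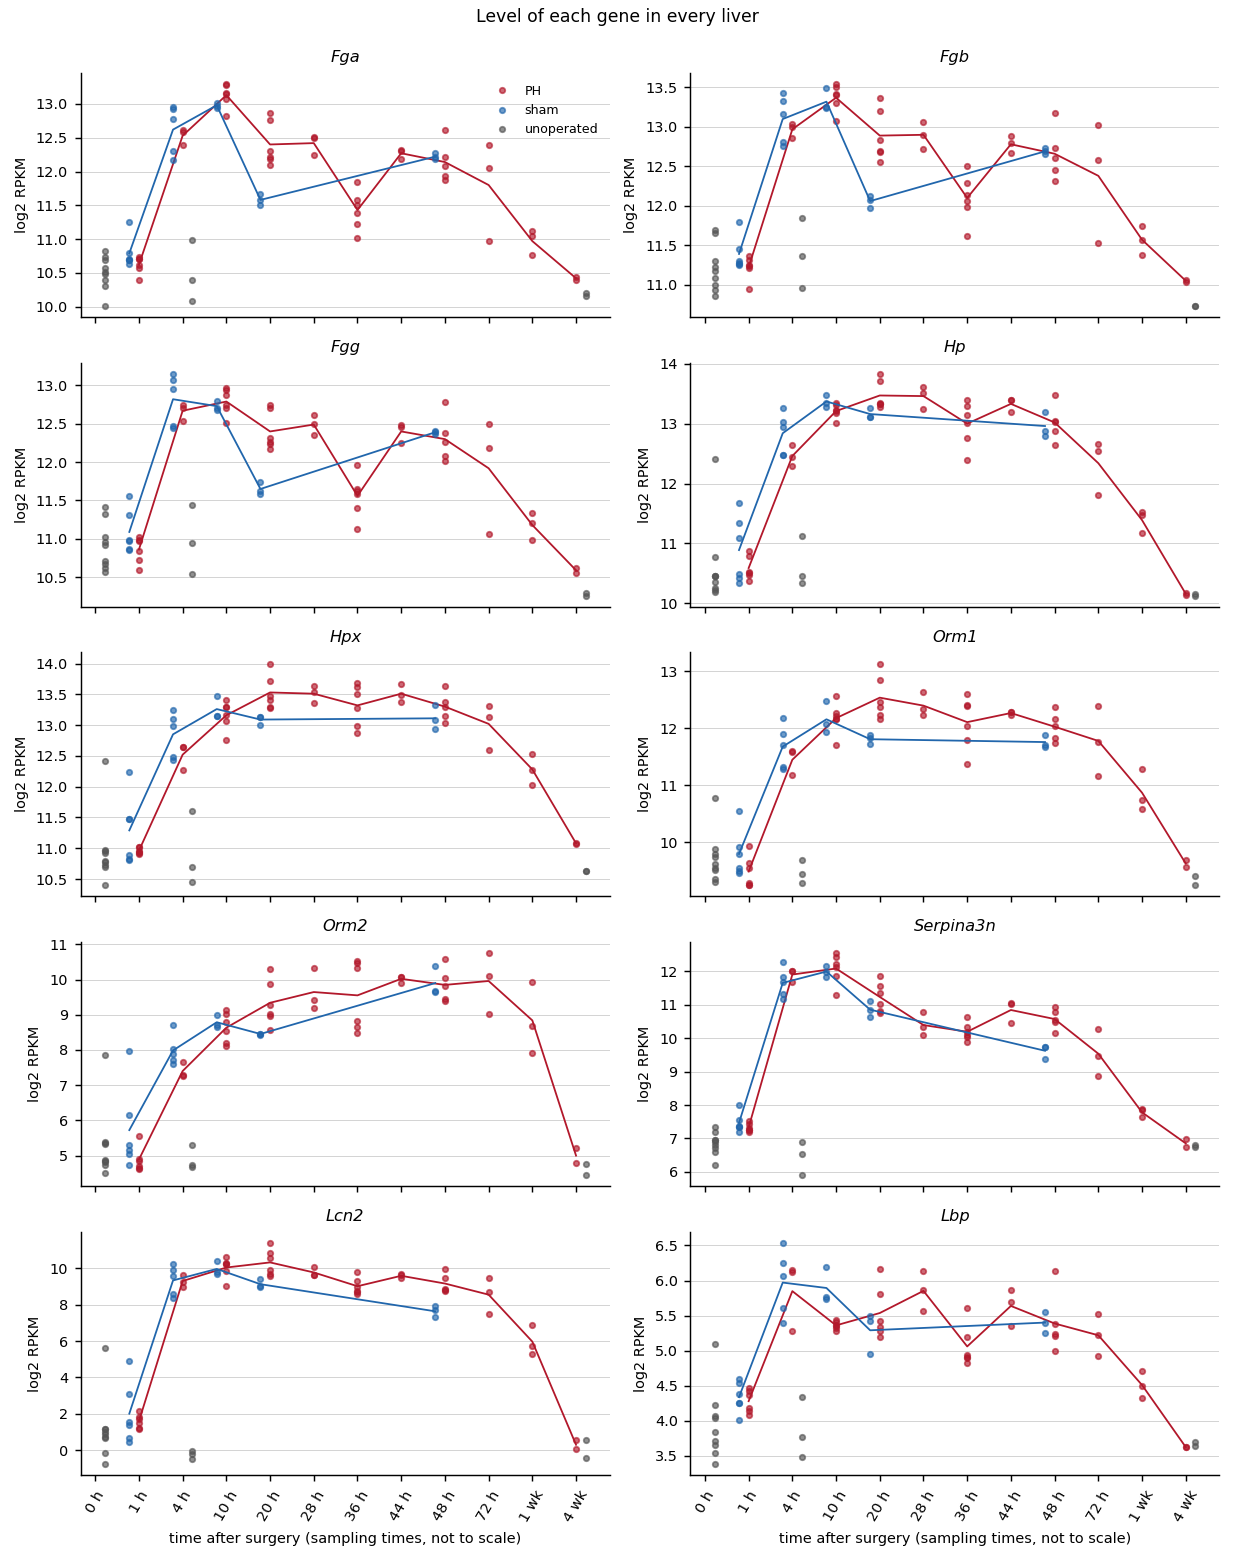
Level (log2 RPKM, vertical axis, a scale of its own for each gene) of the 10 genes in every liver by time after surgery (horizontal axis, sampling times not to scale), with post-PH livers in red, sham livers in blue and unoperated livers in gray. Each point is 1 liver and lines join the group means. Fibrinogen genes and Serpina3n peaked early, Orm2 kept its high level to 72 h, and all 10 genes were back near the unoperated livers at 4 weeks.

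From 10 to 72 h post-PH all 10 genes stayed called higher than C0 at each of the 7 times, against 21.2% of all genes at X10, 16.5% at X20, 13.6% at X28, 25.7% at X36, 30.8% at X44, 30.4% at X48 and 26.6% at X72. From 10 h on the shares of all genes called lower were 15.2%, 7.63%, 11.3%, 9.29%, 8.42%, 7.66% and 6.59% in the same order. The sham livers had all 10 called at S10, S20 and S48, where 17.9%, 7.85% and 3.83% of all genes were called higher and 11.2%, 4.29% and 5.05% lower. The median of the 10 genes over C0 was highest at X20 (2.70) and lay at 1.89 at X72, and in the sham livers it went from 2.46 at S10 to 2.11 at S20 and 2.10 at S48. However, the genes did not share 1 time of highest level. The highest post-PH mean was at X10 for Fga, Fgb, Fgg and Serpina3n, at X20 for Orm1, Hp, Hpx and Lcn2, at X28 for Lbp and at X44 for Orm2. When the 19 groups were ranked by level, 16 to 18 of the 18 neighboring pairs of groups overlapped for each gene, so these peaks are the order of the means, and most neighbors in it were not separated beyond their spread.

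At 36 h the means of all 10 genes were below those at 28 h and at 44 h, and the fibrinogen chains are given first. Fga stood between 12.82 and 13.29 log2 RPKM at X10 (median 13.15) and between 12.09 and 12.86 at X20 (median 12.26). It was at 12.50, 12.24 and 12.51 at X28, from 11.02 to 11.84 at X36 (median 11.45) and at 12.19, 12.30 and 12.32 at X44. The 6 X36 livers were therefore all below the 3 livers at each neighboring time. Fgb and Fgg took the same course, with X36 minus X28 means of −0.80 and −0.93 on the log2 scale (Fga −0.99) and X44 minus X36 means of 0.68 and 0.84 (Fga 0.84). Lbp (−0.79 and 0.58) and Lcn2 (−0.76 and 0.57) had steps of nearly the size of Fgb. Those of Hp (−0.45 and 0.33), Orm1 (−0.30 and 0.17), Hpx (−0.19 and 0.19), Serpina3n (−0.20 and 0.65) and Orm2 (−0.09 and 0.47) were smaller on the way down. This low point was chosen for description after its values were seen and was not tested. At X36 the 3 chains were still 1.57- to 1.90-fold above C0. The call of Fgg at X36 (0.65) was lost with libraries scaled to the same median (0.34, adjusted p = 0.0632, limma) and with C0 replicates 7 to 9 alone (0.43, adjusted p = 0.0568). X36 was the only post-PH group sampled at ZT14, so its hour of the day and its time after surgery cannot be told apart. By the supplement X36 also spans the first and the second period, whereas X28 and X44 came from the first alone.

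In the sham livers the fibrinogen chains were lower at S20 than at S10 and S48. Fga was at 12.97, 12.94 and 13.02 at S10, at 11.58, 11.50 and 11.67 at S20, and at 12.27, 12.21 and 12.19 at S48. Thus each S20 liver was below each S10 and each S48 liver, and Fgb (12.07, 11.97 and 12.13 at S20; 12.70, 12.66 and 12.73 at S48) and Fgg did the same. At 20 h, ZT22, the sham fibrinogen levels were 1.67- to 2.11-fold above C0, and Fgg was not called with C0 replicates 7 to 9 alone (0.52, adjusted p = 0.0634, limma). No sham livers were collected at 28, 36 or 44 h, so the time of this low point cannot be set against X36. S20 was the only sham group at ZT22, and S48 came from another period than S10 and S20. Hour of the day, period and time after surgery therefore cannot be told apart here, and these steps were not tested.

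Haptoglobin and hemopexin varied less between these times. Hp had group means of 13.21 log2 RPKM at X10, 13.47 at X20, 13.46 at X28, 13.33 at X44 and 13.02 at X48, with X36 livers from 12.40 to 13.40 (median 13.08), and Hpx stayed between 13.16 and 13.53 at all times from X10 to X48. The highest difference from C0 was at X20, with 2.85 ± 0.20 for Hp (7.22-fold, adjusted p = 2.85e-19, limma) and 2.57 ± 0.19 for Hpx (5.94-fold, adjusted p = 2.18e-18). Within a liver the difference Hp minus Hpx was −0.34 ± 0.25 log2 units at C0 (SD, n = 9), between −0.06 and 0.05 in the post-PH means from 4 to 28 h, and −0.68 ± 0.17 at X72 (n = 3) and −0.89 ± 0.28 at X1W (n = 3). At X4W it was −0.92 ± 0.02 (n = 2, with C4W at −0.49 ± 0.02). The C0 livers ran from −0.75 to 0.01, so that the highest X72 liver (−0.48) and the highest X1W liver (−0.56) lay within the resting range and both X4W livers below it, and these differences were not tested.

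The orosomucoids came apart in time. Orm1 was at 9.62 log2 RPKM in the median C0 liver (range 9.30 to 10.77), at 12.42 at X20 (range 12.17 to 13.14), and at 12.40, 11.76 and 11.17 at X72. Orm2 was at 4.87 at C0 (range 4.51 to 7.86), at 9.15 at X20 (range 8.57 to 10.31), and at 10.75, 10.10 and 9.03 at X72. Accordingly Orm1 had its largest difference from C0 at X20 (2.82 ± 0.18, 7.06-fold) and Orm2 its largest at X44 (4.71 ± 0.46, 26.1-fold, adjusted p = 6.20e-14, limma). Within a liver the difference Orm2 minus Orm1 was −4.42 ± 0.59 at C0 and −4.05 ± 0.21 at X4, and was −3.20 ± 0.27 at X20, −2.18 ± 0.24 at X48 and −1.82 ± 0.28 at X72. In the sham livers it was −3.36 ± 0.10 at S20 and −1.86 ± 0.30 at S48, so the approach of Orm2 to Orm1 was there without resection too. By X4W it was back at −4.63 ± 0.21 (n = 2). Reads that map to both genes were split between them by the authors, so part of each level is uncertain.

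Orm2 also varied widely among livers of 1 group. At X36 it stood at 10.46, 10.52 and 10.34 log2 RPKM in replicates 1, 3 and 4 and at 8.82, 8.66 and 8.49 in replicates 2, 5 and 6, with none between. Orm1 in those livers was at 12.40, 12.41 and 12.60 against 11.38, 12.04 and 11.80, the same division on a smaller scale. Lcn2 (9.31, 8.94 and 9.77 against 8.57, 8.76 and 8.66), Hp (13.15, 13.40 and 13.30 against 12.40, 13.01 and 12.76) and Hpx (13.62, 13.69 and 13.50 against 12.87, 13.28 and 12.98) were divided alike, whereas Fga was not (11.50, 11.39 and 11.84 against 11.02, 11.58 and 11.23). This division was seen in the values and was not tested.

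**Figure D3:**
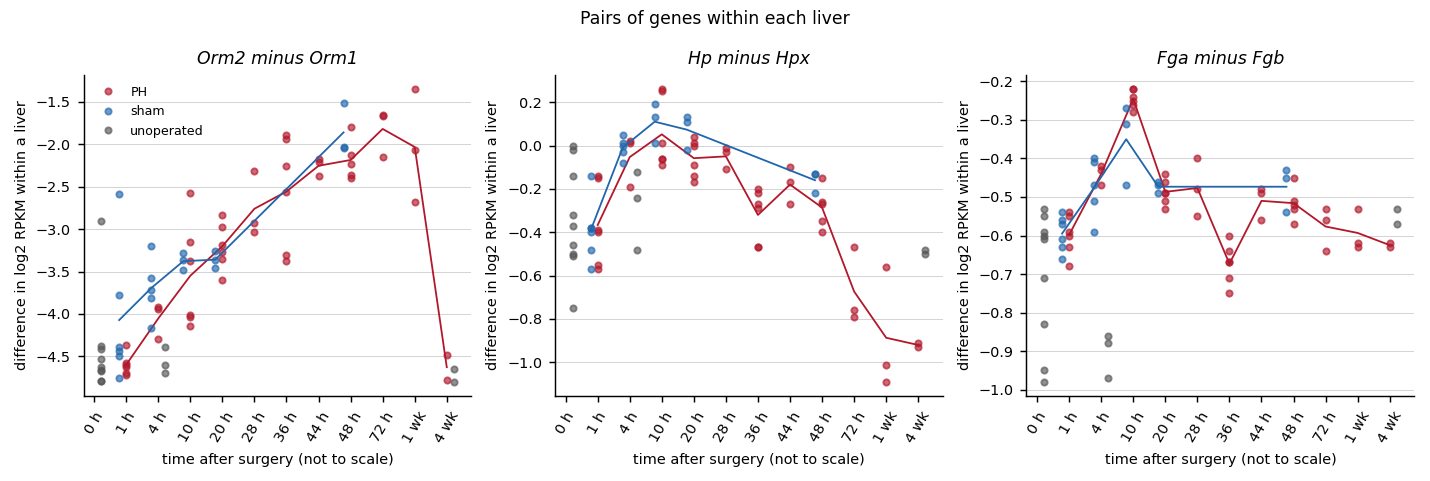
Difference in log2 RPKM between genes of a pair within each liver (vertical axis) by time after surgery (horizontal axis, not to scale), with 1 point a liver, post-PH in red, sham in blue, unoperated in gray and lines through group means. Orm2 approached Orm1 from −4.42 at C0 to −1.82 at X72 and −1.86 at S48. The mean of Hp minus Hpx was −0.68 at X72 and −0.89 at X1W against −0.34 at C0, with livers overlapping, and Fga came closest to Fgb at X10 (−0.25).

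Among the fibrinogen chains the proportions shifted less. Fga minus Fgb was −0.70 ± 0.17 log2 units at C0 and −0.25 ± 0.03 at X10 (n = 6), where the 6 livers ranged from −0.29 to −0.22 and the C0 livers from −0.98 to −0.52. At X36 the difference was back at −0.67 ± 0.05.

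Against sham livers of the same time, none of the 10 genes was called by limma at 1, 4 or 10 h after PH. At an unadjusted p below 0.05, 1 gene passed at 1 h (Orm2, −0.83), 0 at 4 h and 1 at 10 h (Lbp). For Orm2, S1 replicate 1 stood at 7.96 log2 RPKM, the other S1 livers at 4.74 to 6.14 and the X1 livers at 4.62 to 5.57. Of all genes 0.624% were called higher and 0.0260% lower at 1 h, 3.16% and 5.48% at 4 h, and 3.40% and 3.62% at 10 h. The differences PH minus sham ran from −0.83 for Orm2 to −0.06 for Lbp at 1 h and from −0.58 for Orm2 to 0.25 for Serpina3n at 4 h. At 10 h they ran from −0.53 for Lbp to 0.15 for Fga. The 95% confidence interval for Fga at 10 h was −0.23 to 0.54 and that for Serpina3n −0.39 to 0.56, whereas those for Lcn2 (−1.16 to 1.32) and Orm2 (−1.12 to 0.81) were wider. Lbp was lower in every X10 liver (5.28 to 5.43, median 5.36) than in the S10 livers (5.73, 5.76 and 6.19), with an adjusted p of 0.129 (limma), and it was called when only the 9 libraries of these groups were fitted (adjusted p = 0.0118).

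At 20 h, 4 of the 10 genes were called higher after PH than after sham surgery, where 4.49% of all genes were called higher and 2.61% lower. These were the 3 fibrinogen chains and Orm1. Fgb lay between 12.55 and 13.37 in the X20 livers (median 12.77) and at 12.07, 11.97 and 12.13 in the S20 livers, and the groups did not overlap. The differences were 0.82 ± 0.19 for Fga (1.77-fold, adjusted p = 0.00244, limma), 0.84 ± 0.20 for Fgb (1.78-fold, adjusted p = 0.00283), 0.75 ± 0.20 for Fgg (1.68-fold, adjusted p = 0.00682) and 0.73 ± 0.24 for Orm1 (1.66-fold, adjusted p = 0.0343). The other 6 differences were above 0 as well, from 0.24 for Lbp to 1.20 for Lcn2, and did not pass. The call of Orm1 was lost without any 1 of the 3 S20 livers or without X20 replicate 5 or 6 (0.61 to 0.77, adjusted p 0.0608 to 0.143). It was also lost with no filter on low values (0.73, adjusted p = 0.0809), with libraries scaled to the same median (0.65, adjusted p = 0.0890) and when only these groups were fitted (adjusted p = 0.0514).

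Replicates 1 to 3 and 4 to 6 of X20 differed. In replicates 1 to 3, Lcn2 stood at 9.68, 9.87 and 9.56 log2 RPKM, and in replicates 4 to 6 at 10.56, 10.80 and 11.39. Fga was at 12.09, 12.19 and 12.21 in the former and at 12.31, 12.76 and 12.86 in the latter. With replicates 1 to 3 alone against S20, none of the 10 genes was called (Fga 0.58, adjusted p = 0.0579, Fgb 0.59, adjusted p = 0.0727, limma), and with replicates 4 to 6 alone 5 were, the 4 above and Serpina3n (Fga 1.06, adjusted p = 6.91e-04, Serpina3n 0.74, adjusted p = 0.0438). Every one of the 6 X20 livers was above all S20 livers for Fga, Fgb, Fgg and Orm1. The same held for Orm2, Hp, Hpx and Lcn2, which were not called, whereas Lbp and Serpina3n overlapped. The share of all genes without overlap was not counted. By the supplement X20 spans the first and the second period and S20 the second alone, and the labels do not say which X20 replicates belong to which.

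At 48 h the genes called were others, which does not by itself show that their differences from sham were new. Lcn2 and Serpina3n were called higher after PH, the 2 of 10 against 24.5% of all genes called higher and 2.69% called lower. Lcn2 was at 9.93, 8.86, 8.81, 8.72 and 9.43 in the X48 livers and at 7.29, 7.91 and 7.69 in the S48 livers, and Serpina3n was at 10.94, 10.53, 10.49, 10.14 and 10.77 against 9.38, 9.75 and 9.74. Neither gene overlapped between the groups, and the share of all genes without overlap was not counted here either. Lcn2 differed by 1.52 ± 0.64 (2.87-fold, adjusted p = 0.0471, limma) and Serpina3n by 0.95 ± 0.25 (1.93-fold, adjusted p = 0.00122). The whole table was shifted in this comparison, with a median of 0.27 over all genes, and a share of 2 in 10 does not stand above the 24.5% of all genes. With libraries scaled to the same median Lcn2 was 1.14 (adjusted p = 0.212) and Serpina3n 0.57 (adjusted p = 0.105) above sham, and neither was called. The call of Lcn2 was also lost without any 1 of the 3 S48 livers or without X48 replicate 1 or 5 (1.33 to 1.66, adjusted p 0.0662 to 0.153). The neutrophil markers summed to 2.38 to 8.88 RPKM in the X48 livers and 3.67 to 7.42 in the S48 livers, ranges that overlapped.

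Fibrinogen no longer differed by call at 48 h, with Fga −0.08 (95% confidence interval −0.47 to 0.32), Fgb −0.04 (−0.45 to 0.37) and Fgg −0.09 (−0.49 to 0.32). For these chains the change was tested itself. The PH minus sham difference at 48 h minus that at 20 h was −0.90 ± 0.28 for Fga (adjusted p = 0.0177, limma), −0.87 ± 0.28 for Fgb (adjusted p = 0.0274) and −0.83 ± 0.28 for Fgg (adjusted p = 0.0338), against 0.650% of all genes called lower and 12.5% called higher. At 20 h these livers come from 2 periods and at 48 h from 1. Leaving out single livers took the adjusted p above 0.05 at differences of similar size. The call of Fga was lost without S48 replicate 1 (−0.88, adjusted p = 0.0501), that of Fgb without S20 replicate 2, S48 replicate 1 or 3, X20 replicate 5 or 6 or X48 replicate 4 (−0.87 to −0.78, adjusted p 0.0525 to 0.0617), and that of Fgg without any S20 or S48 liver, X20 replicate 5 or 6 or X48 replicate 3 or 4 (−0.88 to −0.76, adjusted p 0.0522 to 0.0754). With no filter on low values Fgb (adjusted p = 0.0669) and Fgg (adjusted p = 0.0791) were not called. Lcn2 (0.33 ± 0.89) and Serpina3n (0.57 ± 0.34) did not pass this test, nor did the other 5 genes (−0.94 for Orm2 to −0.25 for Hp). Against 4 h none of the 10 genes was called (0.02 for Fga to 1.56 for Lcn2, with 30.3% of all genes called higher, 3.36% lower).

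**Figure D4:**
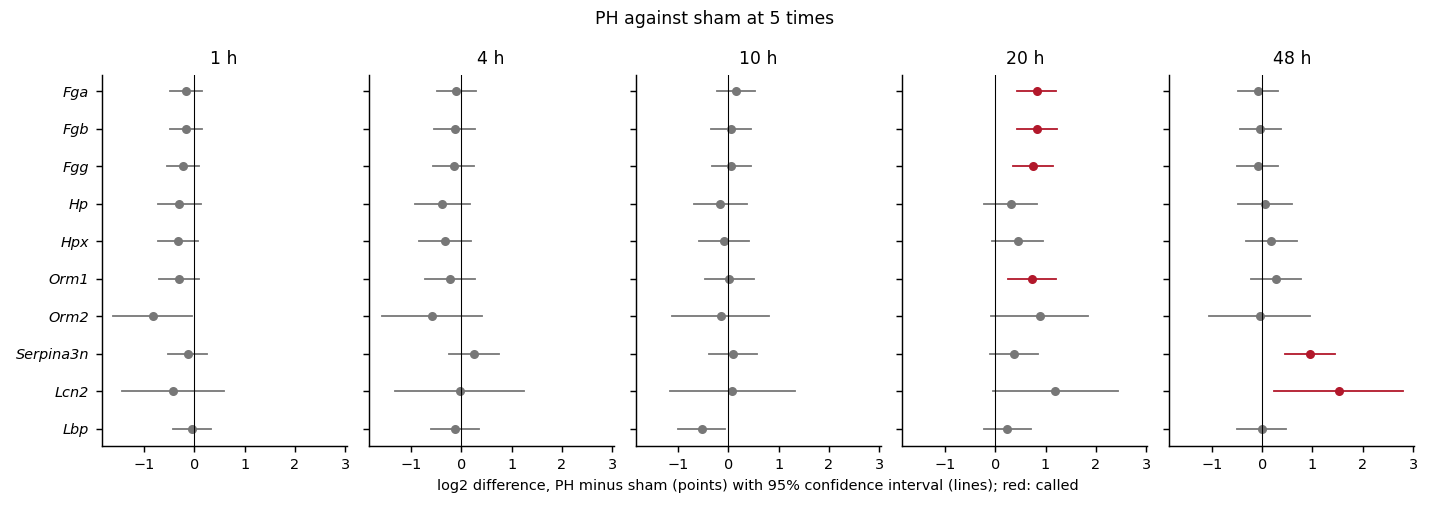
Difference between post-PH and sham livers (horizontal axis, log2(RPKM + 0.25), PH minus sham) of the 10 genes at the 5 times that have sham livers (1 to 48 h), with points for the estimates from limma, lines for their 95% confidence intervals and red for genes called. At 20 h the fibrinogen genes and Orm1 were called (0.73 to 0.84), and at 48 h Serpina3n (0.95) and Lcn2 (1.52).

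Times that share an hour of the day were compared post-PH. At ZT6, 4 of the 10 genes were higher at 28 h than at 4 h, against 22.6% of all genes, namely Orm2 by 2.24 ± 0.56 (4.74-fold, adjusted p = 9.50e-04, limma), Hpx by 1.00 ± 0.29, Hp by 0.99 ± 0.30 and Orm1 by 0.95 ± 0.28. With libraries scaled to the same median, Orm1 (0.70, adjusted p = 0.0617, limma) and Hp (0.75, adjusted p = 0.0691) were no longer called. Serpina3n alone was lower, at 10.08, 10.32 and 10.78 in X28 against 12.02, 11.67 and 12.01 in X4, a change of −1.51 ± 0.28 (adjusted p = 1.15e-05, 5.72% of all genes called lower). The fibrinogen chains (−0.17 to −0.07) and Lbp (0.00) did not pass. Lcn2 (0.47) did not pass either. Between 20 and 44 h (ZT22) none was called, with differences from −0.74 for Lcn2 to 0.68 for Orm2 (12.9% of all genes higher, 3.11% lower). Between 48 and 72 h (ZT2) Serpina3n was lower by a value of −1.04 ± 0.25 (adjusted p = 0.00282, 3.73% of all genes called lower and 2.23% higher), with 10.26, 9.47 and 8.87 at X72, where replicate 1 reached into the X48 range. Without X72 replicate 3 that value was −0.71 (adjusted p = 0.122), and with only these groups fitted the adjusted p was 0.0602. The other 9 genes ran from −0.68 for Hp to 0.11 for Orm2 and did not pass.

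The X72 livers differed among themselves in 8 of the 10 genes by more than 0.8 log2 units, Hpx and Lbp excepted. Replicate 1 had the highest and replicate 3 the lowest level of Orm1 (12.40 against 11.17), Orm2 (10.75 against 9.03), Fga (12.39 against 10.97) and Lcn2 (9.47 against 7.47). Neutrophil markers summed to 33.2 RPKM in replicate 1, 8.95 in replicate 2 and 3.78 in replicate 3, and the part of other cells in these levels was not tested.

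At 1 week, 7 of the 10 genes were still called higher than C0, against 12.4% of all genes called higher and 4.48% lower. Lcn2 was at 5.74, 5.30 and 6.86 log2 RPKM in the X1W livers, 4.60 ± 0.59 above C0 (24.2-fold, adjusted p = 1.37e-08, limma). Orm2 was at 8.69, 7.90 and 9.93, 3.53 ± 0.46 above C0 (11.5-fold, adjusted p = 1.86e-08). All 3 were above every C0 liver for Orm2. For Lcn2 they were above 8 of the 9 C0 livers, and replicate 2 was below C0 replicate 8 (5.64). Hpx (1.32 ± 0.23), Orm1 (1.15 ± 0.23), Serpina3n (0.92 ± 0.23), Hp (0.77 ± 0.25) and Lbp (0.55 ± 0.22) followed, and the fibrinogen chains (0.27 to 0.47) were not called. Lbp at this time lost its call when any of C0 replicates 1 to 4 or 9, or any X1W liver, was left out (0.45 to 0.65, adjusted p 0.0520 to 0.221), and Hp without X1W replicate 2 or 3 (0.73 and 0.71, adjusted p 0.0515 and 0.0804). With libraries scaled to the same median neither Hp (0.61, adjusted p = 0.0737) nor Lbp (0.40, adjusted p = 0.186) was called, nor was either with C0 replicates 7 to 9 alone (0.24 and 0.34) or with only these groups fitted, and Lbp was not called with no filter on low values (adjusted p = 0.107). Against C0 replicates 4 to 6 alone Serpina3n (0.61, adjusted p = 0.0943) and Lbp (0.46, adjusted p = 0.162) were not called and Fgb was (0.61). Fga was called without C0 replicate 8 (0.51) or X1W replicate 2 (0.57). Of 8 macrophage markers 3 were called higher at X1W, where they summed to 39.6 to 87.3 RPKM, against 9.71 to 30.7 in the C0 libraries other than replicate 8. Of 11 neutrophil markers 0 were called at X1W (1.46 to 3.69 RPKM), and the part of other cells in the levels at 1 week was not tested.

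At 4 weeks none of the 10 genes was called against C0 (3.53% of all genes higher, 2.09% lower) or against the unoperated C4W livers (0.0325% in each direction). At an unadjusted p below 0.05, none of the 10 passed in either comparison. The differences ran from −0.80 for Lcn2 to 0.12 for Hpx against C0 and from −0.04 for Lbp to 0.45 for Hpx against C4W. Hpx was at 11.09 and 11.07 in the X4W livers and at 10.63 in both C4W livers, a difference of 0.45 ± 0.35 with 95% confidence limits of −0.25 and 1.16. With 2 livers a group, changes of this size were not detectable.

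As a share of the transcriptome, the 10 genes went from 1.77% ± 0.56 of summed RPKM at C0 (n = 9) to 6.81% ± 0.71 at X4 (n = 3), 10.4% ± 1.43 at X10 (n = 6) and 9.70% ± 2.02 at X20 (n = 6). The sham livers reached 9.97% ± 0.96 at S10 (n = 3). It was 6.78% ± 1.38 at X36, 9.04% ± 0.35 at X44 (n = 3) and 6.57% ± 2.27 at X72 (n = 3), the lowest post-PH mean from 4 to 72 h, with 6.00% ± 0.17 at S20 (n = 3). It was 3.39% ± 0.68 at X1W (n = 3) and 1.61% ± 0.01 at X4W (n = 2). Albumin, the main plasma protein, held a share that went from 5.69% ± 0.89 at C0 to 3.21% ± 0.29 at X28. By X72 it was at 8.19% ± 1.33.

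**Figure D5:**
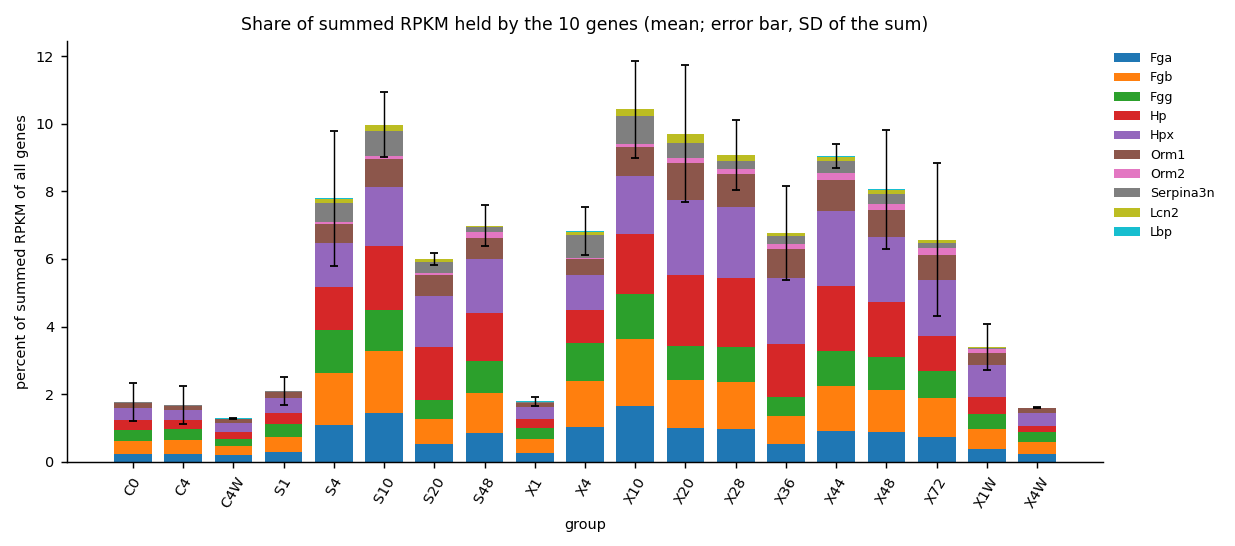
Percent of the summed RPKM of all genes (vertical axis, from 0) held by the 10 genes in each group (horizontal axis), with stacked bars for the mean of each gene and error bars for the SD of their sum over livers. The sum went from 1.77% at C0 to 10.4% at X10 and 9.97% at S10, and was 1.61% at X4W.

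Other genes of the response were examined as lists. Of 19 other positive acute-phase genes, 17 were called higher than C0 at X4 and 17 at S4, 16 at X20 and 15 at S20, 17 at X48 and 15 at S48, 11 at X1W and 0 at X4W. The shares of all genes called higher were 11.2%, 11.7%, 16.5%, 7.85%, 30.4%, 3.83%, 12.4% and 3.53% in the same order. The list's median difference from C0 was 2.67 at X4 and 2.77 at S4. At 4 h the largest changes were in Mt2 and Mt1, the metallothioneins (8.55 and 7.63 at X4), and in Saa2 (8.02). At 20 h, 4 of these 19 were higher after PH than after sham surgery, against 4.49% of all genes. Among them were Steap4 (1.43 ± 0.43), Apcs, serum amyloid P (1.02 ± 0.30), and Cp, ceruloplasmin (0.84 ± 0.19). At 48 h none was higher, against 24.5% of all genes, and 1 was lower, against 2.69%. This was Hamp, which encodes the iron hormone hepcidin (−1.65 ± 0.47, adjusted p = 0.00307, limma). Of 8 plasma proteins known to fall in the response, 3 were called lower at X4, among them Ttr, transthyretin (−0.93 ± 0.15), against 26.9% of all genes. At X20, 5 were called lower, with Serpina6, the corticosteroid carrier, lowest (−2.31 ± 0.27), and 1 was called higher. Of all genes 7.63% were called lower and 16.5% higher at X20.

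Inducers, receptors and transcription factors of the response numbered 19, of which Il6, Tnf and Osm were not above the threshold of −1.5 log2 RPKM in any library. Il6 was listed at 0 reads in 56 of the 80 libraries. Of the 16 tested, 7 were called higher at X1, 6 at S1, 11 at X4 (3 lower) and 10 at S4 (4 lower). The shares of all genes called higher were 4.85%, 2.44%, 11.2% and 11.7% in the same order, with 26.9% lower at X4 and 22.7% at S4. At X1 the largest were Il1r1, the interleukin-1 receptor (1.66 ± 0.32), Cebpb (1.5 ± 0.36) and Cebpd (1.36 ± 0.34). At X4, Socs3, the feedback inhibitor of STAT3 signaling, was 4.59 ± 0.38 above C0 (4.08 ± 0.32 at S4), Il1r1 3.80 ± 0.40 and Cebpd 2.96 ± 0.43. At X20, 7 were called higher, against 16.5% of all genes, with Socs3 at 2.98 ± 0.30 and Stat3 at 1.32 ± 0.12. Against sham at 20 h, 2 of the 16 were higher, Il1r1 among them (1.43 ± 0.43), where 4.49% of all genes were called higher. At 48 h 1 was higher and 2 were lower, Lifr (−0.79 ± 0.27) and Il1rap (−0.66 ± 0.13), where 24.5% of all genes were higher and 2.69% lower.

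Some markers of other cells were called in these groups. Of 11 neutrophil markers tested, 4 were called higher at X1, 2 at X4, 6 at S4 and 1 at X20, against 4.85%, 11.2%, 11.7% and 16.5% of all genes. S100a8 was 2.50 ± 0.55 above C0 at X1 and 3.10 ± 0.58 at S4. Ly6g was listed at 0 reads in 69 libraries and Mpo in 50. Of 8 hepatocyte markers, 3 were called higher and 1 lower at X4, against 11.2% and 26.9% of all genes. At X20, X44 and X48, 2 were higher and 4 lower, against 16.5%, 30.8% and 30.4% of all genes higher and 7.63%, 8.42% and 7.66% lower. At X36 and X72, 3 were higher and 2 lower, against 25.7% and 26.6% of all genes higher and 9.29% and 6.59% lower. Against S48, 0 were higher and 3 lower at X48, where 24.5% of all genes were called higher and 2.69% lower. Of 8 macrophage markers, 4 were called lower than C0 at X4 and 0 at S4, against 26.9% and 22.7% of all genes. Against C4, 5 were lower at X4 and 3 at S4 (33.9% and 31.0% of all genes), and X4 against S4 had 0 called. Higher than C0 were 2 at X48, 3 at S48 and 3 at X1W, against 30.4%, 3.83% and 12.4% of all genes. Of 5 cholangiocyte, 4 endothelial and 3 stellate cell markers, 3, 1 and 2 were called lower at X4, and 0 of each was called higher, where 26.9% of all genes were called lower. The neutrophil markers summed to 4.69 to 10.1 RPKM at X4 (median 6.63) and 7.39 to 45.9 at S4 (median 22.1), against a median of 1.30 at C0 (0.411 to 55.1, and up to 5.50 without replicate 8). The part of these cells in the levels of the 10 genes was not tested.

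Last, each gene was set beside the table's other genes by the Pearson correlation of its 19 group means, a description over groups that share libraries and a strong common rise. Among 11561 genes, the closest to Orm1 was Hpx (0.995) and the closest to Fga was Fgb (0.995). The closest outside the 10 were Apcs for Orm1 (0.984) and Hp (0.978), Fgl1 for Hpx (0.988), Serpina10 for the fibrinogen chains (0.960 to 0.969), C3 for Orm2 (0.975), Saa2 for Lcn2 (0.987) and Lrg1 for Lbp and Serpina3n (0.964 and 0.974).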

How the data were processed

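Poly(A)-selected, stranded RNA-Seq of individual mouse livers was sequenced as single-end reads of 100 nt. Per the study's methods and the submitters' processing notes, reads were trimmed with Cutadapt and prinseq-lite, aligned to mm9 with TopHat2 2.0.13 and Bowtie2, handled with SAMtools 0.1.19 and assigned to Ensembl genes with featureCounts, multi-mapped reads being split among their positions. The authors deposited log2 RPKM values, 1 column a library, with −14.29 standing for 0 reads. Of 84 columns, 80 matched a labelled sample, 4 matched none and were not used, and 7 of 87 labelled samples had no column and are not analysed here.

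Values were taken out of the log scale, 0.25 RPKM was added and log2 taken again. The 15396 genes above −1.5 log2 RPKM in at least 1 library (about 18.9 reads on a gene of 2 kb at median depth) were fitted in 1 linear model with 19 groups, using limma 3.58.1 with a trend in R 4.3.3. Tests were two-sided, adjusted by Benjamini-Hochberg over all genes, and called where the adjusted p was under 0.05 and the log2 difference exceeded 0.5 in size. All adjusted p-values are from limma. A fold change on this scale understates that of low genes. Depth was estimated from the steps of the low values, of which a median of 76.1% per library were whole reads within 0.05 of a read, too few for a count test. SDs describe spread between livers, and livers of 1 group are separate mice. SEs and confidence intervals belong to differences between group means in the limma model, and are not the spread of the livers compared.

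The 10 genes, the lists (other positive and negative acute-phase genes, inducers, and markers of hepatocytes, neutrophils, macrophages, cholangiocytes, endothelial and stellate cells) and the tests were chosen with earlier results of these data known. All 10 genes were tested in every comparison, and those that are not named there lie within the range or count given. From each list, up to 3 called genes of largest change per comparison could be named, and for each of the 10 genes the gene of most similar group means. S100a8 in C0 and low points of the course were added after their values were seen. Alternatives were the pseudocount, the filter, scaling to equal medians, a constant prior, a replicate block, fits of only the groups compared, subsets of replicates and leaving out each library. Scripts were tested on simulated data. Python 3.11.15, numpy 2.4.6, pandas 2.3.3, scipy 1.17.1 and matplotlib 3.10.9 were used.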

Additional observations from a re-analysis of the deposited data

Results flagged for a closer look

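In groups of 4 to 10 livers, the gap of the highest or lowest liver to the next was compared with Dixon's critical value, which chance passes in about 1 of 20 groups. Of 80 such tests 9 passed. Among these, 6 were in C0 replicate 8, for Orm1 (10.77 log2 RPKM), Orm2 (7.86), Hp (12.41), Hpx (12.41), Lcn2 (5.64) and Lbp (5.09), each the highest of the 9 C0 livers. In S1 replicate 3, Fga stood at 11.25 and Fgb at 11.79, the highest of 6, and in X1 replicate 1 Orm2 stood at 5.57, the highest of 6.

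The PH minus sham difference changed between 20 and 48 h by the test of that change itself for Fga (−0.90), Fgb (−0.87) and Fgg (−0.83), on the log2(RPKM + 0.25) scale.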

How the results depend on the processing

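Of 6400 values of the 10 genes under other settings, 6310 kept their call or lack of one, 68 lost the call and 22 gained one. Of the values called in either fit, 0 reversed direction. The direction of values called in neither fit was not compared. The count of the 10 genes called moved by over 1.5 times as follows, and the cause was not tested. For X48 against S48 (2) it was 1 with a pseudocount of 0.05, 1 with no filter and 0 with equal medians. For the 48 h against 20 h difference (3) it was 1 with no filter. For X1 against C0 (0) it was 1 with equal medians, 2 with C0 replicates 1 to 3, 1 with C0 replicates 7 to 9 and 1 without C0 replicate 8, X28 replicate 2 and S1 replicate 1. X28 against X4 (5) gave 3 with equal medians. S1 against C0 (1) gave 2 with C0 replicates 1 to 3 and 0 with C0 replicates 4 to 6. With only the groups compared, X72 against X48 (1) gave 0, X10 against S10 (0) gave 1 and the 48 h against 4 h difference (0) gave 1. X4W against C0 (0) gave 1 with C0 replicates 7 to 9, and X20 against S20 (4) gave 0 with replicates 1 to 3. Smaller moves were X1W against C0 (7), with 6 with no filter or C0 replicates 4 to 6, 5 with equal medians, only the groups compared or C0 replicates 7 to 9, and 8 without C0 replicate 8, X28 replicate 2 and S1 replicate 1. X36 against C0 (10) gave 9 with equal medians or C0 replicates 7 to 9, S20 against C0 (10) gave 9 with C0 replicates 7 to 9, and X20 against S20 (4) gave 3 with no filter, equal medians or only the groups compared and 5 with replicates 4 to 6. Leaving out 1 library gave 0 to 1 for X1 against C0, 5 to 8 for X1W against C0, 0 to 4 for S1 against C0, 3 to 4 for X20 against S20, 0 to 3 for the 48 h against 20 h difference, 1 to 2 for X48 against S48 and 0 to 1 for X72 against X48, and the counts of the other comparisons did not move. With the replicate block, S1 against C0 gave 2 and X72 against X48 gave 2, Hp being added in both, and no other call changed. The numbers did not pair the livers: of 17 pairs of livers of the same number in 5 comparisons of PH with sham, 3 had a correlation of deviations over 0.1 (−0.19 to 0.27). Over all genes, a pseudocount of 1 moved the count of calls by over 1.5 times in 17 of 31 comparisons. Groups hold as few as 2 livers, which limits what could be detected.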
